A study of Mus musculus with 15 samples.

Results

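The 10 genes described here are 9 enzymes of glycolysis and its regulation, Gpi1, Pfkl, Pfkfb1, Pfkfb3, Tpi1, Gapdh, Pgk1, Pgam1 and Eno1, together with Pklr. They were taken by symbol from a table of 16330 genes, each was listed once, and all 10 were among the 13570 genes tested. Mouse liver RNA had been sequenced 6 h after gavage. The groups were LbNOX livers after ethanol (3 libraries, M13 to M15), LbNOX livers after water (4, M6 to M9), luciferase livers after ethanol (3, M10 to M12) and luciferase livers after water (5, M1 to M5). LbNOX is a bacterial water-forming NADH oxidase that turns NADH back to NAD+, and luciferase stands as the control construct. The labels used here give neither the delivery of the constructs nor the strain, sex or age of the mice. The series' own design note mentions ChREBP animals beside wild-type ones, whereas each sample's genotype label is luciferase or LbNOX, so the ChREBP genotype of these animals is not settled here. The labels also do not say that replicates were separate animals, so p-values measure the spread between these libraries.

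Glycolysis turns glucose into pyruvate in the cytosol, and in the liver the same chain also carries sugars such as fructose towards fat synthesis. Phosphofructokinase and pyruvate kinase catalyse irreversible steps, and the enzymes between triose phosphate and phosphoenolpyruvate work in both directions and also serve gluconeogenesis. The step of glyceraldehyde phosphate dehydrogenase reduces NAD+ to NADH, and oxidation of ethanol by hepatocytes also makes NADH from NAD+. Pklr, the liver pyruvate kinase gene, is a textbook target of the carbohydrate response element binding protein ChREBP.

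Values are normalized counts, reads divided by a factor per library. Recovered depth was 10.6 to 23.7 M reads a library, 10.6 to 15.7 M across LbNOX ethanol livers and 12.2 to 14.4 M across luciferase ethanol livers. The liver label held: 8 of 8 hepatocyte markers were listed and their summed level was 571358 or more in every library. Library M3 of luciferase water was the lowest of its group in 10 of the 10 genes, and M8 of LbNOX water was the lowest in 8 of 10. The same libraries were the highest of their groups in summed Kupffer cell markers (M8 3546, M3 4200), endothelial markers (M8 3890, M3 3713) and exocrine pancreas markers (M8 8022, M3 1042). In bulk liver, fewer cells of a type and less RNA per cell cannot be told apart. The main results on the 10 genes that rest on water libraries are also given without M3 and M8.

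In luciferase livers, ethanol was followed by higher transcripts of 4 of the 10 genes: Pklr, Pfkfb3, Gpi1 and Pfkl. No member fell. The 5 enzymes from triose phosphate to phosphoenolpyruvate, Tpi1, Gapdh, Pgk1, Pgam1 and Eno1, and the liver bifunctional enzyme gene Pfkfb1 did not pass the test. Across all genes tested, 7.75% were called in either direction and 4.62% were called higher, by limma with Benjamini-Hochberg adjusted p below 0.05. The median log2 fold change was 0.45 over the 10 genes and 0.01 over all genes tested. The genes had been chosen with earlier results of these data known, so their count is a description of them.

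**Figure D1:**
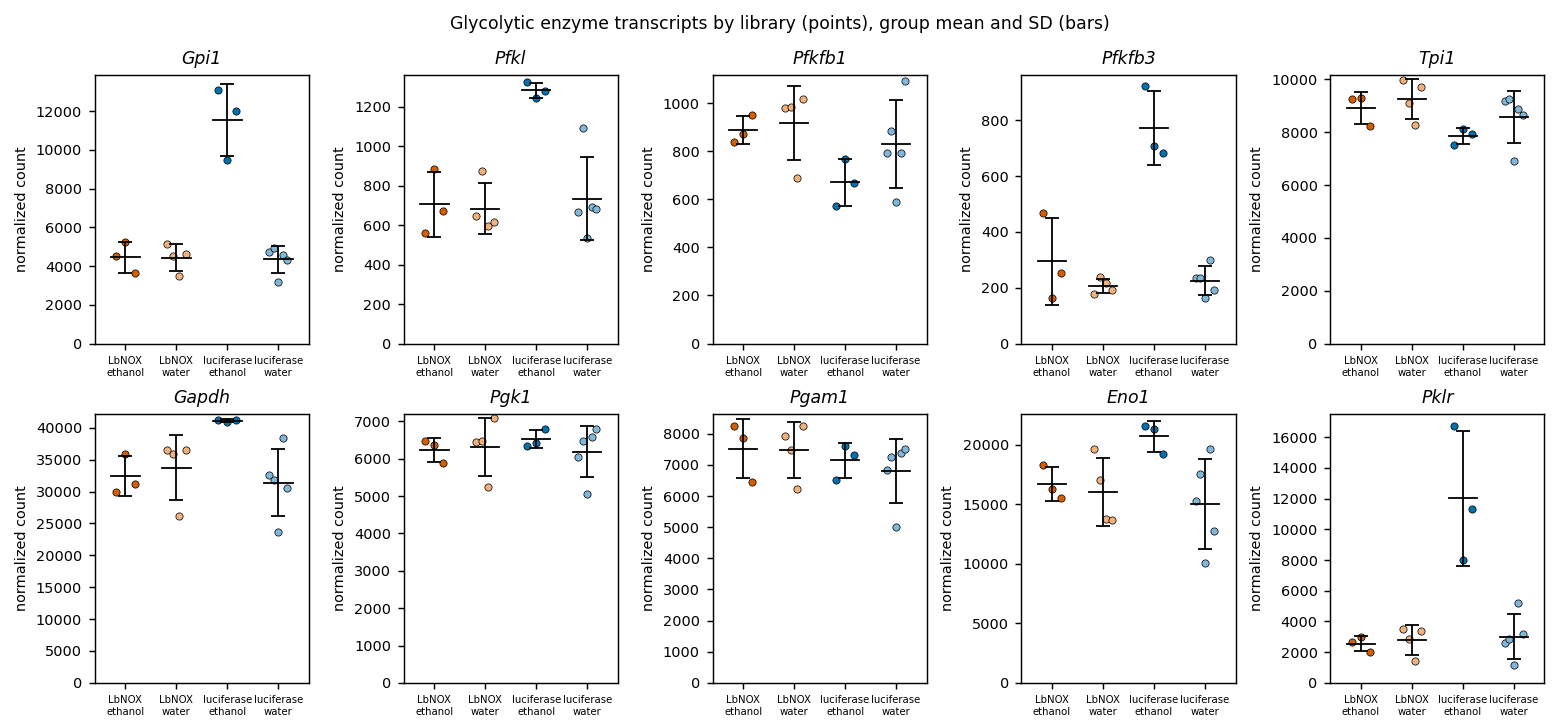
Normalized count (linear axes from 0) of each of the 10 genes in every library; points are libraries, bars the group mean and SD (3 or 4 LbNOX libraries, 3 or 5 luciferase libraries), with ethanol left of water. The luciferase ethanol points of Pklr (8034 to 16745), Gpi1 (9470 to 13075), Pfkfb3 (683 to 925) and Pfkl (1245 to 1324) stand apart from the other groups, while those of Tpi1, Pgk1 and Pgam1 overlap luciferase water. Gapdh points of luciferase ethanol (40959 to 41297) also lie above all other libraries, of which the highest is M4 (38463).

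Gpi1 encodes glucose phosphate isomerase, which interconverts glucose phosphate and fructose phosphate. Its normalized counts were 13075, 9470 and 12021 in luciferase livers after ethanol, against 4743, 4930, 3157, 4561 and 4314 after water. Every ethanol library lay above every water library. The log2 fold change was 1.41 (SE 0.18, 95% confidence interval 1.03 to 1.80; limma adjusted p = 0.000306), and the call held without M3 and M8 (adjusted p = 0.000163).

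Pfkl is the liver subunit of phosphofructokinase, the committed step of glycolysis. It was measured at 1324, 1245 and 1281 normalized counts after ethanol in luciferase livers, against 668, 1095, 534, 692 and 685 after water. The ethanol values lay close together and above all water values, of which M2 was the nearest. Its log2 fold change was 0.85 (SE 0.20, 95% confidence interval 0.41 to 1.28; limma adjusted p = 0.0204), and 0.74 (adjusted p = 0.0399) without M3 and M8. The call of Pfkl ended without M10 (adjusted p = 0.0890), M11 (0.0526) or M12 (0.0671), the highest of all its alternatives being 0.0890.

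Pfkfb1 and Pfkfb3 encode bifunctional enzymes that make and remove a fructose bisphosphate which is a signal and not an intermediate of glycolysis, the allosteric activator of phosphofructokinase. Pfkfb1 is the liver form, and Pfkfb3 is an inducible form whose kinase activity greatly exceeds its phosphatase activity. Pfkfb3 reached 925, 707 and 683 normalized counts in luciferase livers after ethanol, against 234, 235, 165, 300 and 192 after water. All ethanol libraries lay above all water libraries, and the log2 fold change was 1.79 (SE 0.27, 95% confidence interval 1.21 to 2.37; limma adjusted p = 0.00108). Without M3 and M8 it was 1.68 (adjusted p = 0.00350). Pfkfb1 was at 574, 767 and 669 after ethanol, against 791, 883, 590, 793 and 1092 after water, and the groups overlapped. Its log2 fold change of -0.29 (SE 0.18; limma adjusted p = 0.393) did not pass the test. Without M3 and M8 it was -0.41 (adjusted p = 0.0860).

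Tpi1 interconverts the triose phosphates, and its log2 fold change in luciferase livers was -0.12 (95% confidence interval -0.37 to 0.14; limma adjusted p = 0.646). Gapdh makes bisphosphoglycerate and NADH, and is often used as a reference transcript. Gapdh was at 41297, 40959 and 41186 normalized counts after ethanol, against 32625, 31774, 23731, 38463 and 30499 after water. All ethanol values of Gapdh were above all water values, as they were for 5 of the 10 genes (Pklr, Pfkl, Pfkfb3, Gpi1 and Gapdh) and for 8.32% of all genes tested, yet its log2 fold change of 0.41 (SE 0.16; adjusted p = 0.160) did not pass. Pgk1, which makes ATP from bisphosphoglycerate, had a log2 fold change of 0.08 (95% confidence interval -0.18 to 0.35; adjusted p = 0.776). Pgam1 shifts the phosphate of phosphoglycerate, and its log2 fold change was 0.09 (95% confidence interval -0.24 to 0.41; adjusted p = 0.817). The enolase gene Eno1, whose product makes phosphoenolpyruvate, was at 21570, 21318 and 19197 after ethanol, against 15253, 17526, 10039, 19634 and 12771 after water. The Eno1 groups overlapped through M4, and the log2 fold change was 0.50 (SE 0.20; adjusted p = 0.153). Without M3 and M8 none of these genes passed. Their log2 fold changes then ran from -0.19 for Tpi1 (adjusted p = 0.248) to 0.36 for Eno1 (0.2125), with Gapdh at 0.31 (0.130).

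Pklr encodes the pyruvate kinase of liver and red blood cells, which makes pyruvate and ATP in the last step. It had 16745, 8034 and 11335 normalized counts in luciferase livers after ethanol, against 2569, 2861, 1136, 5212 and 3190 after water. All ethanol libraries were above all water libraries, and the spread within either group was wide. The ratio of the group means was 4.02, and the log2 fold change was 2.10 (SE 0.41, 95% confidence interval 1.22 to 2.98; limma adjusted p = 0.00569). Without M3 and M8 it was 1.79 (adjusted p = 0.00161). The counts are per gene and do not separate the liver and erythroid transcripts of Pklr. Of the 8 red blood cell markers, 6 were tested, 6 of 6 were below 0 on the log2 scale and 0 were called by limma, with 1 at an unadjusted p below 0.05. Their summed level was 8483 to 14198 in luciferase ethanol livers, against 11234 to 19060 in luciferase water livers.

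Markers of other liver cells are also given for ethanol against water in luciferase livers. Of 8 liver endothelium markers tested, 7 were below 0 on the log2 scale (median -0.60), 0 were called by limma and 4 were at an unadjusted p below 0.05. Of these 4, Fcgr2b (-0.71), Gpr182 (-0.61) and Kdr (-0.84) were below 0 and Lyve1 (1.25) was above 0. Their summed level was 1783 to 2632 in luciferase ethanol livers, against 2021 to 3713 in luciferase water livers, with M3 the highest. Of 10 Kupffer cell markers 8 were tested, 7 of them were below 0 (median -0.41), and 0 were called by limma or at an unadjusted p below 0.05. Their summed level was 1525 to 1953 in luciferase ethanol livers, against 1683 to 4200 in luciferase water livers, again with M3 the highest. No marker of either list was at 0 throughout a group, and the part of these cells in the results was not tested.

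The 3′ end of Pklr (GRCm38 chromosome 3, 89136142 to 89146784, plus strand) overlaps Hcn3, a channel gene on the minus strand, over 711 bases. Whether reads were counted by strand is not given in the sources used here, so reads of the pair may be shared. Hcn3 was at 1538 to 2594 in luciferase ethanol livers, against 224 to 873 in luciferase water livers, with a log2 fold change of 2.13 (SE 0.50; limma adjusted p = 0.0177; over its alternatives 0.000345 to 0.0930, ended without M10 or M12; 0.0109 without M3 and M8). Pklr held several times more reads than Hcn3 in each of these groups.

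Skeletal muscle has its own glycolytic isoforms, and its markers are given beside these results. The summed level of 6 markers was 753 to 984 in luciferase ethanol libraries, against 2.35 to 758 in luciferase water libraries, 55.3 to 310 in LbNOX ethanol libraries and 44.1 to 605 in LbNOX water libraries. Their median log2 fold change was 2.68 in luciferase livers, 0 of 6 were called by limma and 1 was at an unadjusted p below 0.05. None of the 6 was at 0 throughout a group. The muscle-rich isoform genes Pfkm (0.03), Pkm (0.05; 0.29 without M3 and M8) and Aldoa (-0.09) did not pass the test, nor did Pgam2 (1.17, adjusted p = 0.287) and Eno3 (0.55, adjusted p = 0.218). The part of muscle RNA in the results was not tested otherwise.

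Promoter windows of the 4 genes that rose are shown for the letters of response elements they hold. Each runs from 250 bases before to 50 bases after a RefSeq transcript start on GRCm38.p6, is written 5′ to 3′ on the strand of the gene, and has motif matches in capitals. For Pklr the window is that of the downstream, liver-type start, and both RefSeq starts of Pfkfb3 are given. In GENCODE the genes span 34201330 to 34230336 of chromosome 7 (Gpi1), 77986947 to 78010083 of chromosome 10 (Pfkl) and 11471433 to 11554077 of chromosome 2 (Pfkfb3), all on the minus strand of GRCm38.
Pklr, chr3:89136373-89136672, plus strand: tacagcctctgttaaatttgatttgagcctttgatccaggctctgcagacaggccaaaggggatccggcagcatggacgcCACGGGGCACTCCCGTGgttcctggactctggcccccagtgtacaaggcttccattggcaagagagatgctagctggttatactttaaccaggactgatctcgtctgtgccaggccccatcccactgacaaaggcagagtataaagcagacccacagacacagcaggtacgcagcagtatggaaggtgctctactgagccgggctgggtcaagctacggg
Gpi1, chr7:34230287-34230586, minus strand: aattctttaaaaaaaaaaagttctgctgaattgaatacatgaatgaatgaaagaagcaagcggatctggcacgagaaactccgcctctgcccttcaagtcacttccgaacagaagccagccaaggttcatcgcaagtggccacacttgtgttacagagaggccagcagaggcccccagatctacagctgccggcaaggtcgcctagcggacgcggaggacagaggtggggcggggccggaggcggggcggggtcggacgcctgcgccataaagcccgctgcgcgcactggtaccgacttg
Pfkl, chr10:78009758-78010057, minus strand: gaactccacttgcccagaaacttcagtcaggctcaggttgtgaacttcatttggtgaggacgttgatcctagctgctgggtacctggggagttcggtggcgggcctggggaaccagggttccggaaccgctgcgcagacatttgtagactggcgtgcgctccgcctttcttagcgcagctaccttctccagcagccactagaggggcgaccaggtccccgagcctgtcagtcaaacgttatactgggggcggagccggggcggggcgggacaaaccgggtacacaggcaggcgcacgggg
Pfkfb3 upstream start, chr2:11553880-11554179, minus strand: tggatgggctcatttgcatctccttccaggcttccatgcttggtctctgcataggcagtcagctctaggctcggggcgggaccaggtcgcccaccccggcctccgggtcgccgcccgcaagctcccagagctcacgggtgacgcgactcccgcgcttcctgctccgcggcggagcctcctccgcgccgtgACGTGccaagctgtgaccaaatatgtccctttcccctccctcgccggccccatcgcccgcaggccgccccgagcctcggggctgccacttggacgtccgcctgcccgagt
Pfkfb3 downstream start, chr2:11502041-11502340, minus strand: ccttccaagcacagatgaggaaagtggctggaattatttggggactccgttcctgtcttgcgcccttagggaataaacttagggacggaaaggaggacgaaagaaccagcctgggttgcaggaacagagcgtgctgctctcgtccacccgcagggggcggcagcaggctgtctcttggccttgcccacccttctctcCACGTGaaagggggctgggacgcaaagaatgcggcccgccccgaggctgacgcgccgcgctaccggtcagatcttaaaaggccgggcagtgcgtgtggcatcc

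The first search, on both strands, was for CACGNG, then NNNNN, then CNCGTG, a pair of E-box-like elements with the spacing of a carbohydrate response element. It matched 15 of 32851 RefSeq windows (0.0457%). Among the 17 windows of the 10 genes, the downstream Pklr window alone held it, as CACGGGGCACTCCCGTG with its first base at position -170 from the start. The E-box CACGTG was in 7.15% of all windows and in 1 window of the genes, the downstream Pfkfb3 window at position -53. The core ACGTG of the hypoxia response element, which the E-box contains, was in 19.6% of all windows and in 5 of the 17, those of Gapdh, Pgam1 and Pgk1 and both of Pfkfb3. The Gpi1 and Pfkl windows held none of the 3 motifs. The first pattern fixes its outer letters, so elements that depart from them could not match. Because Pklr is a textbook ChREBP target, a match in its window was foreseeable. It is given as a description and not as a finding of these data. A match describes letters in a window and is not a measured binding site.

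In LbNOX livers, ethanol was followed by no call among the 10 genes. limma called 0 of 10, 0 had an unadjusted p below 0.05, and edgeR and DESeq2 on recovered reads also called 0. Of all genes tested, 0.00737% (1 gene) were called by limma, while DESeq2 called 282 genes and limma without M3 and M8 called 142. The ethanol and water libraries overlapped for all 10 genes, and the log2 fold changes ran from -0.06 for Pklr to 0.39 for Pfkfb3. Without M3 and M8 they ran from -0.36 for Pklr (limma adjusted p = 0.493) to 0.42 for Pfkfb3 (adjusted p = 0.456), and 0 of 10 were called.

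Neutrophil markers are also given for this comparison. Of 7 markers 3 were tested, and S100a8 (2.83), Retnlg (2.00) and S100a9 (1.96) were above 0 on the log2 scale, all 3 at an unadjusted p below 0.05 and 0 called by limma. The summed level was 63.9 to 405 in LbNOX ethanol livers, against 22.7 to 136 in LbNOX water livers, with Mpo at 0 throughout the LbNOX ethanol livers. Library M13 was the highest in all 3 (S100a8 113, S100a9 227 and Retnlg 55.3). Ethanol library M14 (22.6, 34.4 and 6.88) lay below water library M8 (31.6, 85.5 and 15.4). The part of neutrophils in the values was not tested.

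Pklr was at 2672, 2990 and 2016 normalized counts in LbNOX livers after ethanol, against 3525, 2845, 1405 and 3411 after water. Its log2 fold change had a 95% confidence interval of -0.98 to 0.86, while that of luciferase livers was 2.10 (1.22 to 2.98). The direct test of the difference, given below, did not pass for Pklr in the main limma fit. Gpi1 was at 4496, 5228 and 3623 after ethanol, against 5164, 4515, 3468 and 4609 after water, an interval of -0.40 to 0.40. The groups overlapped in both genes. Pfkl was at 562, 884 and 672 after ethanol, against 647, 874, 598 and 616 after water, with an interval of -0.42 to 0.49. Pfkfb3 was at 468, 163 and 254 after ethanol, against 177, 237, 216 and 193 after water, with an interval of -0.22 to 1.00. Its library M13 was above all water libraries and M14 below them. Of the other 6 genes, Tpi1 was at 9274, 9297 and 8234 after ethanol, against 9990, 9098, 8260 and 9711 after water, and the log2 fold changes of the 6 lay between -0.05 and 0.07.

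After water, none of the 10 genes passed the test between LbNOX and luciferase livers. limma called 0 of 10, 0 had an unadjusted p below 0.05, and edgeR and DESeq2 called 0. Of all genes tested 0% were called, with 440 at an unadjusted p below 0.05, 0 called by edgeR and 18 by DESeq2. The log2 fold changes ran from -0.11 for Pfkfb3 to 0.16 for Pfkfb1, and the groups overlapped for all 10 genes. Without M3 and M8 they ran from -0.24 for Pfkfb3 to 0.17 for Pfkfb1, and 0 of 10 were called. For Pklr the 95% confidence interval was -0.83 to 0.78, and for Gpi1 it was -0.32 to 0.39.

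After ethanol, LbNOX livers had lower Pklr, Gpi1, Pfkfb3 and Pfkl transcripts than luciferase livers had, and the other 6 genes did not pass the test. Of all genes tested, 6.06% were called and 3.82% were called lower. This comparison shares the luciferase ethanol libraries with the ethanol comparison of luciferase livers, so the same values enter both. All LbNOX libraries lay below all luciferase libraries for 6 genes (Pklr, Pfkl, Pfkfb3, Gpi1, Gapdh and Eno1; 15.4% of all genes tested) and above them for 2 (Pfkfb1 and Tpi1; 14.1%). Of the tested markers, 8 of 8 of Kupffer cells (median log2 fold change 0.44) and 6 of 8 of endothelium (0.49) were above 0. So were 3 of 3 of neutrophils (1.13). Hepatocyte (7 of 8, -0.28) and red blood cell markers (5 of 6, -0.38) were mostly below 0. Muscle (6 of 6, -2.51) and pancreas markers (5 of 6, -0.66) were also below 0. In each list limma called 0, and the part of these cells in the results was not tested.

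Pklr averaged 2559 ± 497 normalized counts in LbNOX ethanol livers and 12038 ± 4398 in luciferase ethanol livers (SD, n = 3 each), a log2 fold change of -2.19 (SE 0.46; limma adjusted p = 0.0129). Without M10 (0.0682) or M15 (0.0646) the Pklr call ended, the highest of its alternatives being 0.0682. Gpi1 averaged 4449 ± 804 in LbNOX ethanol livers and 11522 ± 1854 in luciferase ethanol livers, and its log2 fold change was -1.38 (SE 0.20; adjusted p = 0.00137; at most 0.0122 under the alternatives). Pfkfb3 averaged 295 ± 156 in LbNOX ethanol livers and 771 ± 133 in luciferase ethanol livers (log2 fold change -1.50, SE 0.30; adjusted p = 0.0102). Its call ended without M10 (0.0562) and with only the compared groups in the fit (0.0598). Pfkl averaged 706 ± 164 in LbNOX ethanol livers and 1284 ± 39.3 in luciferase ethanol livers (log2 fold change -0.89, SE 0.23; adjusted p = 0.0339). The Pfkl call ended without M10 (0.110), M11 (0.0723), M12 (0.0943), M13 (0.137) or M15 (0.113), and without a mean-variance trend (0.0518). Pfkfb1 (0.41, adjusted p = 0.257), Gapdh (-0.35, 0.288), Eno1 (-0.31, 0.451) and Tpi1 (0.18, 0.467) did not pass.

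The ethanol effect in LbNOX livers minus that in luciferase livers tests directly whether the responses differ. Gpi1 was the 1 gene of 10 past the threshold, against 1.67% of all genes tested, with a difference of -1.41 on the log2 scale (SE 0.26, 95% confidence interval -1.97 to -0.86; limma adjusted p = 0.0158). Without M10 (0.0610), M12 (0.0519) or M15 (0.0584) the Gpi1 call ended, and without M3 and M8 it held (0.00433). Pklr had the widest difference, -2.16 (SE 0.59, 95% confidence interval -3.43 to -0.89), with an adjusted p of 0.0870. It passed by DESeq2 (0.00691), without M3 and M8 (0.0141), without M4 (0.0401) and without M8 (0.0323), and its alternatives ran to 0.222. For Pfkfb3 the difference was -1.40 (SE 0.39; adjusted p = 0.0955), past the threshold by DESeq2 (0.0487) and without M13 (0.0238), with alternatives up to 0.232; without M3 and M8 it was 0.130. For Pfkl it was -0.81 (SE 0.29; adjusted p = 0.205). The differences of Gapdh (-0.46, adjusted p = 0.386) and Eno1 (-0.42, 0.517) did not pass either.

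**Figure D2:**
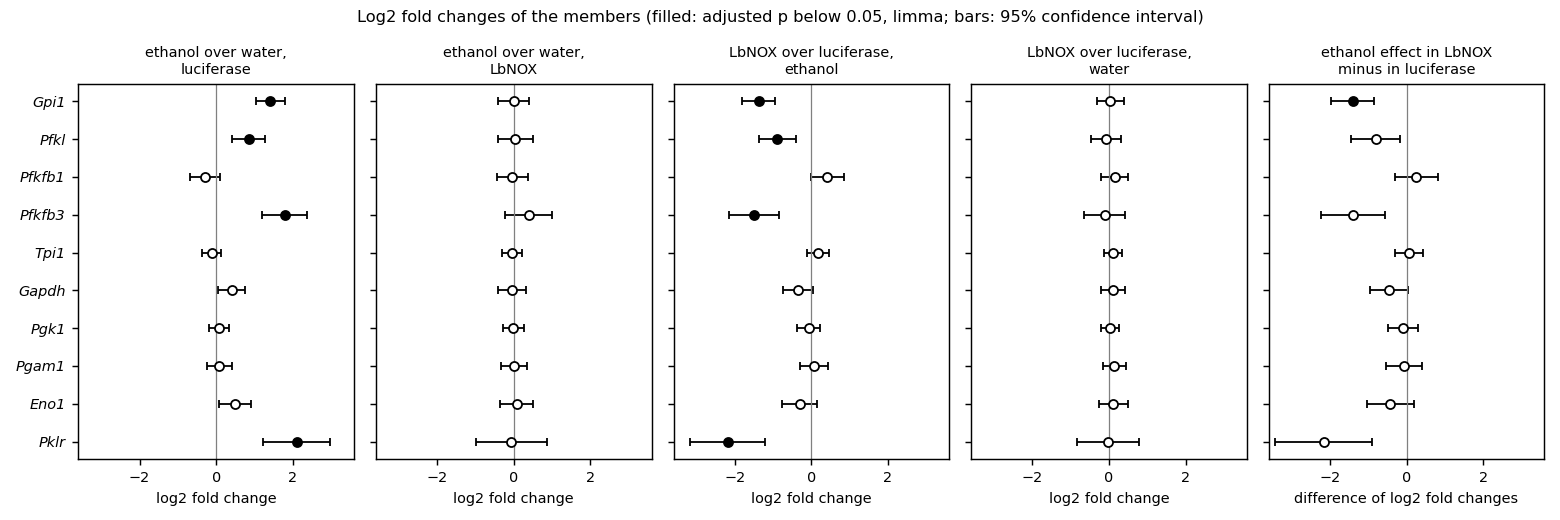
Log2 fold change of each of the 10 genes in the comparisons of ethanol with water and of LbNOX with luciferase, and the difference of the ethanol effects; points are limma estimates, bars 95% confidence intervals, filled points adjusted p below 0.05. Pklr, Pfkfb3, Gpi1 and Pfkl are to the right of 0 in luciferase livers (0.85 to 2.10) and to the left in LbNOX against luciferase after ethanol (-0.89 to -2.19), and no point is filled for LbNOX ethanol against LbNOX water.

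Levels per length were compared between genes as normalized count per kilobase of the principal transcript. In luciferase ethanol livers Gapdh was the most abundant of the 10 genes at 28977 per kilobase, followed by Eno1 (10210), Tpi1 (4895), Pklr (4148), Pgam1 (4029), Gpi1 (3995) and Pgk1 (3577). Pfkfb1 (385), Pfkl (344) and Pfkfb3 (166) were the lowest. In luciferase water livers Pklr was at 1032 and Gpi1 at 1505, both below Pgk1 (3393), Pgam1 (3830) and Tpi1 (5341). In LbNOX ethanol livers the places of Pklr (882) and Gpi1 (1543) relative to Pgk1 (3417) were those of luciferase water livers. Between luciferase ethanol libraries Pklr ran from 2768 to 5770 per kilobase. The means of Tpi1, Pgam1, Gpi1 and Pgk1 lay within this spread, so the place of Pklr among them is not resolved.

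**Figure D3:**
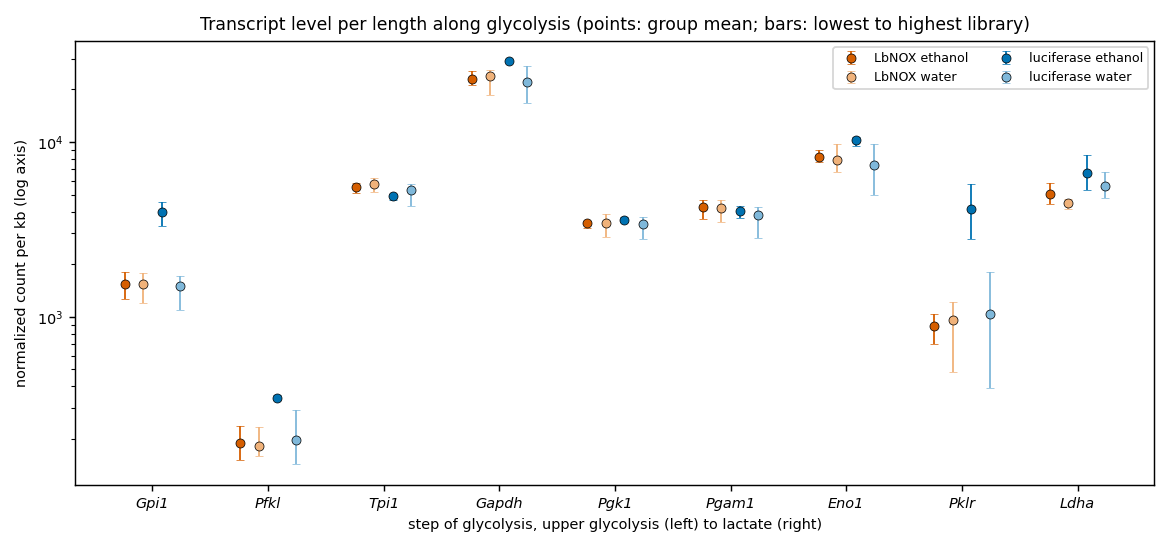
Normalized count per kilobase of transcript (log axis) of glycolytic genes, from upper glycolysis on the left to lactate on the right; points are group means, bars run from the lowest to the highest library. Gpi1, Pfkl and Pklr have luciferase ethanol points above the other 3 groups, as do Gapdh, Eno1 and Ldha by less on this axis. Tpi1, Pgk1 and Pgam1 have points that nearly coincide.

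Ratios within a library do not depend on the library's factor, and are given as a description. Pfkfb3 over Pfkfb1 was 1.61, 0.921 and 1.02 in luciferase ethanol livers, against 0.176 to 0.379 in luciferase water livers. It was 0.187 to 0.558 in LbNOX ethanol livers, against 0.181 to 0.314 in LbNOX water livers. These counts are not divided by transcript length, and the ratios compare groups, not the levels of the isoforms: per kilobase, Pfkfb3 (166) stayed below Pfkfb1 (385) in luciferase ethanol livers. The Pfkfb3 over Pfkfb1 ratio was higher in each luciferase ethanol library than in all other libraries. Pklr over Tpi1 was 0.988 to 2.22 in luciferase ethanol livers, against 0.165 to 0.587 in luciferase water livers, and 0.245 to 0.322 in LbNOX ethanol livers, against 0.170 to 0.353 in LbNOX water livers. Pfkl over the muscle isoform Pfkm was 2.29 to 2.62 in luciferase ethanol livers, against 1.24 to 1.80 in luciferase water livers. In LbNOX livers it was 0.837 to 1.33 after ethanol and 0.983 to 1.41 after water. Pklr over Gpi1 overlapped between groups, at 0.848 to 1.28 in luciferase ethanol livers, against 0.360 to 1.14 in luciferase water livers.

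**Figure D4:**
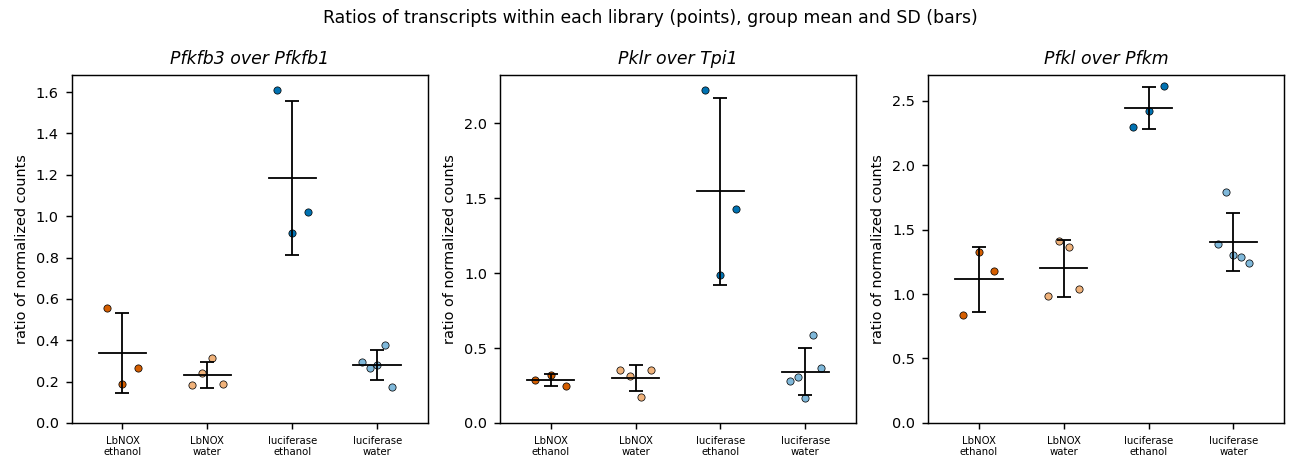
Ratio of normalized counts of gene pairs within each library (linear axes from 0); points are libraries, bars the group mean and SD, with ethanol left of water. For Pfkfb3 over Pfkfb1 the luciferase ethanol libraries (0.921 to 1.61) are above all other libraries, of which the highest is 0.558.

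The muscle-type pyruvate kinase gene Pkm averaged 665 ± 181 normalized counts in luciferase ethanol livers and 698 ± 369 in luciferase water livers (SD, n = 3 and 5), with a log2 fold change of 0.05 (SE 0.42; limma adjusted p = 0.973). Ldha, whose product turns pyruvate into lactate and NADH into NAD+, averaged 11666 ± 2860 in luciferase ethanol livers and 9853 ± 1352 in luciferase water livers, and its log2 difference was 0.23 (SE 0.16; adjusted p = 0.464). Neither passed the test there, in LbNOX livers after ethanol (Pkm 0.66, adjusted p = 0.587; Ldha 0.16, 0.741), or between LbNOX and luciferase livers after ethanol (Pkm 0.30, 0.763; Ldha -0.38, 0.242). After water, the LbNOX libraries of Ldha (7325 to 8354) all lay below those of luciferase (8462 to 11924), and those of Pkm overlapped. Ldha was not called in that comparison, where limma called 0 of 18 genes of lactate and pyruvate handling.

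Downstream of Pklr, 4 of 18 genes of lactate and pyruvate handling rose in luciferase livers after ethanol and 1 fell, with a list median of 0.29. Of all genes tested, 4.62% were called higher there and 7.75% in either direction. The pyruvate dehydrogenase subunit genes Pdhb (1.35, limma adjusted p = 0.00162), Dlat (0.96, 0.00131) and Pdhx (0.67, 0.00413) rose. Pdk1, for a kinase that inactivates the complex, also rose (1.28, 0.0438), and Pdp1, for the phosphatase that reactivates it, fell (-1.60, 0.0156). The Pdk1 call ended when any of 11 single libraries was left out (up to 0.188), and the Pdp1 call without M11 or M12 (up to 0.0702). All 5 calls held with M3 and M8 both left out (adjusted p from 0.000630 to 0.0240). In LbNOX against luciferase livers after ethanol 3 of 18 fell, against 3.82% of all genes tested: Pdhb (-1.27, 0.00755), Dlat (-0.64, 0.0361) and Pdk1 (-1.78, 0.0202). The calls of Dlat and Pdk1 there ended without single libraries (7 libraries, up to 0.152, and 4 libraries, up to 0.0950).

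Hypoxia-inducible factor is another known regulator of glycolytic genes. Of 14 of its targets outside glycolysis, 2 rose in luciferase livers after ethanol, Ddit4 (1.65, limma adjusted p = 0.000109) and Egln3 (1.29, 0.00736). A further 2 fell, P4ha1 (-0.91, 0.0187) and the glucose transporter gene Slc2a1 (-0.96, 0.0497), and the list median was -0.02. Of all genes tested, 7.75% were called in either direction and 4.62% were called higher. The call of Slc2a1 ended when any of 12 single libraries was left out (up to 0.272), that of P4ha1 without M10 or M12 (up to 0.112) and that of Egln3 without M10 (0.0613). With M3 and M8 both left out the call of Slc2a1 ended (0.0988), and those of Ddit4, Egln3 and P4ha1 held (0.000350 to 0.0316). In LbNOX against luciferase livers after ethanol, 6.06% of all genes tested were called. Of the 14 targets, Ddit4 (-0.83, 0.0272) and Egln3 (-1.29, 0.0197) fell there and P4ha1 (0.97, 0.0284) and Slc2a1 (1.13, 0.0471) rose. Each of these 4 calls ended without at least 3 single libraries, with adjusted p up to 0.193.

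Genes with the most similar pattern over the 15 libraries were ranked among 9483 tested genes by the root mean square difference of centred log2 values. Nearest to Gpi1 were Ddhd2 (0.120), the pyruvate dehydrogenase gene Pdhb (0.128) and Fgfrl1 (0.163). Nearest to Pklr were AI317395 (0.269), Aacs (0.283), for acetoacetyl-CoA synthetase, and Ttc23 (0.311). Nearest to Pfkfb3 were Plin5 (0.301), for a lipid droplet protein, Slc45a3 (0.306) and Wbp1l (0.326), and nearest to Pfkl were 2610021A01Rik (0.214), Rrm2 (0.229) and AW209491 (0.229). Among the 10 genes themselves, Pgk1 and Pgam1 were the closest pair (0.0953) and Pklr and Pfkfb1 the farthest (1.11).

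Gapdh shares at least 95% identity over 500 bases or more with transcripts of 73 other genes, 39 of them in the table, none above 141 normalized counts. Pgk1, Pgam1 and Eno1 have 1 such copy each in the table, with highest values of 517 (Gm5537), 119 and 80.9, so reads of these 4 genes may be split with copies. Gpi1 matched 1 other gene in this way, which was not in the table, and Pklr matched Hcn3, the gene overlapping it. Pfkl, Pfkfb1, Pfkfb3 and Tpi1 had none.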

How the data were processed

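The 15 liver libraries were made with KAPA's mRNA HyperPrep chemistry, per the labels. Salmon 1.5.1, DESeq2 1.30.1 and mm10 appear in the submitters' processing notes with no role given. The deposited signal values are normalized counts, for which the authors had divided the reads of a library by 1 factor. Dividing by the step between values gave whole reads within 0.001 for 100% of 244950 values. Groups were read from the column headers.

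Values were tested as log2(normalized count + 1) with limma 3.58.1 (R 4.3.3, trend, robust), keeping genes that reached 10 in 3 or more libraries. A single fit of 4 groups gave every contrast, and p-values were adjusted by Benjamini-Hochberg over all genes tested. Fold changes on this scale understate those of low genes. Alternatives were edgeR 4.0.16 and DESeq2 1.42.0 on recovered reads, quantile normalization, no trend, no filter or a filter of 50, pseudocounts of 0.5 and 5, the compared groups only, and libraries left out. The code was tested on simulated data. Named are all 10 genes, called genes of the other lists, Pkm and Ldha (some genes of the rule are not reported here), and the 3 nearest genes in pattern to each gene called; Pfkm, Aldoa, Pgam2, Eno3 and Hcn3 were added after their values were seen. The genes and lists were chosen with earlier results of these data known. Gene positions are from GENCODE vM21 on GRCm38, and promoter windows from RefSeq.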

Additional observations from a re-analysis of the deposited data

Results flagged for a closer look

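Of 46 groups of 4 or 5 libraries looked at over 23 genes, 6 had a library far from the others of its group by Dixon's criterion, and chance gives about 1 in 20. In luciferase water livers, M2 had 1095 normalized counts of Pfkl, while the others had 534 to 692. In the same group M3 had 6906 of Tpi1 (others 8650 to 9279), 5009 of Pgam1 (6827 to 7507) and 2561 of Pdhb (4400 to 4697). In LbNOX water livers M8 had 689 of Pfkfb1 (others 980 to 1018) and 26242 of Gapdh (35882 to 36521). M3 and M8 were also the highest of their groups in Kupffer, endothelial and pancreas markers, and the part of other cell types in their values was not tested.

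The ethanol effect differed between LbNOX and luciferase livers by the limma test of the difference for Gpi1 (-1.41, adjusted p = 0.0158), Pdhb (-1.36, adjusted p = 0.0443) and P4ha1 (1.40, adjusted p = 0.0387). The Pdhb call ended without any of 10 single libraries (up to 0.124), and that of P4ha1 without any of 11 (up to 0.124).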

How the results depend on the processing

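No paired analysis was possible because the columns carry no replicate number. Of the 10 genes, 4 were called in luciferase livers after ethanol, and 3 to 4 when single libraries were left out. For LbNOX against luciferase after ethanol the count of 4 ran from 1 to 4 with single libraries left out. For the difference of ethanol effects the count of 1 became 3 by DESeq2 and 2 without M3 and M8, and ran from 0 to 2 with single libraries left out; the cause was not tested. Counts of 0 in the other comparisons were 0 under every alternative run. Of 1240 alternative values of the 10 genes, 16 lost a call, 6 gained one and no called value changed sign; 53 uncalled values changed sign. Over all genes, limma called 227 differences of ethanol effects and DESeq2 633; in LbNOX livers after ethanol limma called 1, DESeq2 282 and limma without M3 and M8 142. In LbNOX against luciferase after water it called 0, edgeR 0, DESeq2 18 and limma without M3 and M8 2, and after ethanol 822, against 1349 by DESeq2; in luciferase livers it called 1052, against 1621 by DESeq2. Groups of 3 to 5 libraries limit the precision.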
